A study of Mus musculus with 20 samples.

Results

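The genes described here are 36 mouse genes of DNA replication and of deoxyribonucleotide supply, taken by symbol from the gene table of a bulk RNA sequencing study of whole kidney. All 36 symbols had a row among the 55822 rows of the table, and all 36 passed the filter on low counts that left 16266 genes for testing. They were listed by function, with earlier results of these data known. They were compared between 5 control samples and 5 samples from mice given puberulic acid, a small tropolone acid that certain Penicillium moulds produce.

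The mice were 8-week-old males of the inbred strain C57BL/6J, with no transgene or deletion named in the labels. Controls received phosphate-buffered saline (PBS), and the treated group received puberulic acid at 1 mg per day. Both groups were dosed once daily for 6 days, left for 1 day without dosing and killed on day 7. The labels name the oral route in one place, and in another gavage or injection into the peritoneum, so the route of each sample is not stated here. Nothing in the labels says that each sample was a separate mouse, so the p-values measure the spread between these samples, which may be partly technical. Samples of 2 lots of a dietary supplement were not analysed here.

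Before a cell divides it copies its genome once. In G1 phase the origin recognition complex, with Cdc6 and Cdt1, loads the Mcm2-7 helicase on DNA, and geminin later blocks Cdt1 so that no origin is licensed again. In S phase Mcm10, Cdc45 and the GINS complex turn the loaded helicase into an active one, polymerase alpha with its primase lays down primers, polymerases delta and epsilon extend them on the sliding clamp PCNA, and ribonucleotide reductase and thymidylate enzymes supply the building blocks. Most cells of a healthy adult kidney are not dividing, and tubule cells can enter the cycle again after injury.

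Library totals ran from 18409940 to 24705953 estimated counts. Levels are given as CPM, the counts of a gene relative to its library total after that total was corrected by the trimmed mean of M-values (TMM). The TMM factors ran from 0.827 to 0.848 in controls and from 1.17 to 1.26 in treated samples. In control libraries 3 counts, taken as the floor, equal 0.158 to 0.195 CPM, and in treated libraries 0.0964 to 0.128 CPM, for counting error only. The composition of the kidney RNA differed widely between the groups: 10622 of 16266 genes were called, 5564 higher and 5058 lower. With scaling to total counts alone the split was 9179 higher and 2526 lower, and the median log2 fold change over all genes tested moved from 0.05 to 0.56. Fold changes are treated over control, on the log2 scale with their standard error (SE), and a gene is called where the adjusted p of the quasi-likelihood test in edgeR is under 0.05, with the Benjamini-Hochberg method over all genes tested. In whole tissue, fewer cells of a type and less RNA per cell cannot be told apart.

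In each of the 8 roles, most or all of the replication and nucleotide genes were called higher with puberulic acid. Of the 36 genes, 33 were called higher and 0 lower, where 65.3% of all genes tested were called, 34.2% higher and 31.1% lower. Their median log2 fold change was 1.73, beside 0.05 for all genes tested, and 2.24 beside 0.56 with scaling to total counts. Gmnn, Mcm10 and Rfc5 were not called. The largest changes were those of Uhrf1, Rrm2, Cdc6, Orc1 and Mcm5, each with a fitted rise of more than 8-fold. For Orc1 and Mcm5 the fitted folds were 8.22 and 8.16, and 6.41 and 7.25 at 1 SE lower. In all, 27 genes were called with at least a 2-fold rise, against 18.7% of all genes tested. A rise of at least 4-fold was found for 10 genes, against 9.22%, and of at least 8-fold for 5 genes, against 4.84%. Scaled to total counts instead, 32, 22 and 7 of the 36 genes were called with rises of at least 2-fold, 4-fold and 8-fold, against 31.3%, 13.2% and 6.59% of all genes tested, so these counts depend on the scaling. For 31 genes every treated sample lay above every control sample, where 26.1% of all genes tested were higher without overlap.

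**Figure D1:**
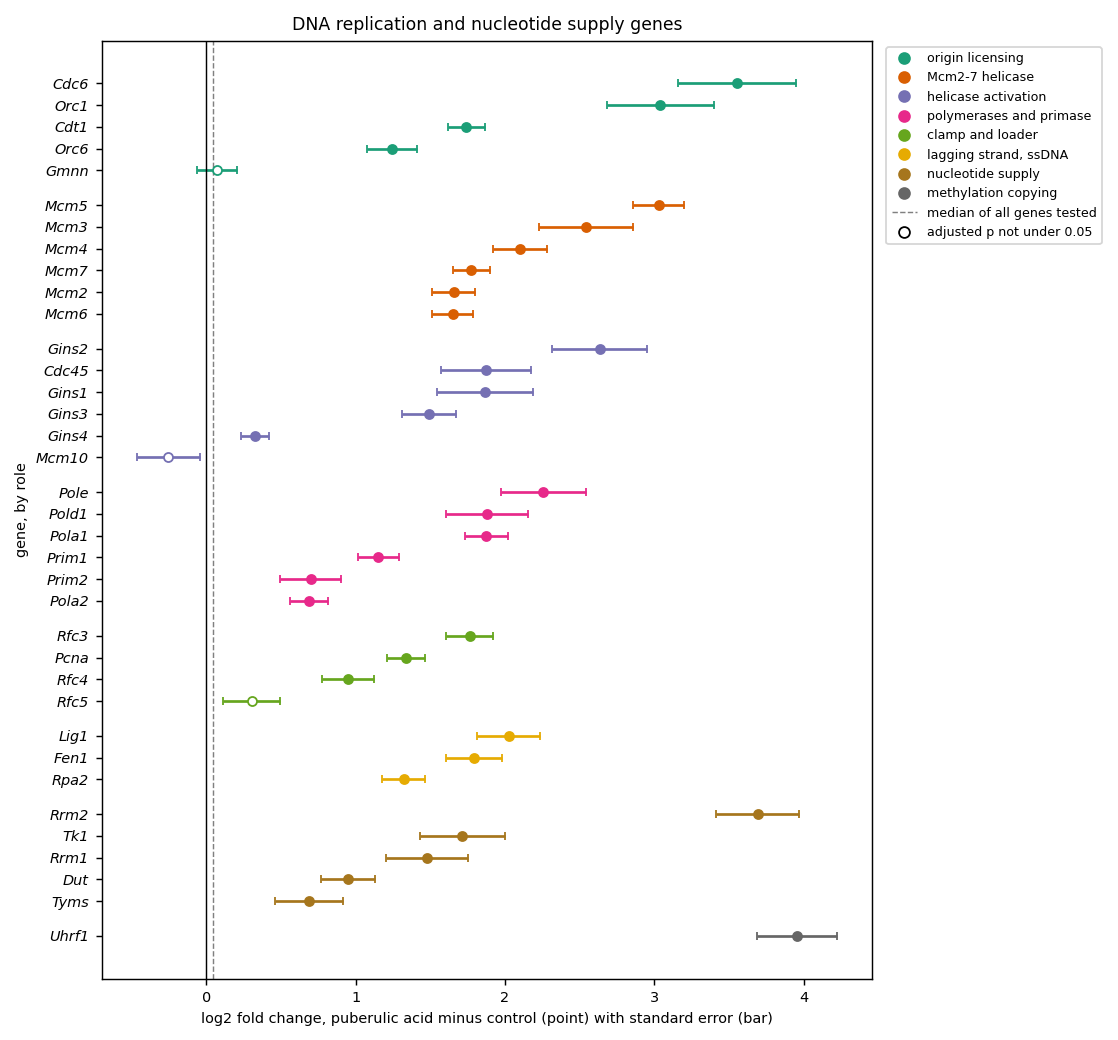
Log2 fold change of each of the 36 genes (point, x axis, puberulic acid minus control) with its standard error (bar), grouped by role on the y axis and coloured by role; open points were not called and the dashed line is the median of all genes tested. The called genes lie between 0.33 (Gins4) and 3.95 (Uhrf1), and the 3 open points lie between -0.25 (Mcm10) and 0.30 (Rfc5).

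Promoter sequences show one feature that many of these genes share and that did not enter their choice. RefSeq promoters (GRCm38.p6, from 250 bases before the start to 50 after) were found for 29 of the 36 genes. For 30 of their 34 promoters, bases 16 to 35 after the start lay in a GENCODE M21 transcript of the gene. The remaining starts are less certain. All promoters were searched on both strands for letters bound by E2F factors, which drive S phase genes (TTTCCCGC, TTTCGCGC, TTTGCCGC and TTTGGCGC). They were also searched for CCAAT, the letters bound by NF-Y, and for the cell cycle homology region found in many mitotic genes (TTTGAA and TTCGAA). E2F letters were present for 13 of the 29 genes (44.8%), against 2.60% of the 27025 genes in the promoter table, 2.26% of its 32851 promoters and 4.25% of the 11775 tested genes with a promoter. CCAAT was present for 18 of 29 (62.1%), against 42.5% of the tested genes with a promoter. The cell cycle homology letters were present for 6 of 29 (20.7%), against 17.1%. All 13 genes with E2F letters were called higher, with a median log2 fold change of 1.88. Of the 16 genes with a promoter and without those letters 14 were called higher, with a median of 1.281. Both counts lie near the 33 of the 36 genes called higher, where 34.2% of all genes tested were. Calls for the other tested genes with E2F letters are not given here. A match is a description of letters, not of a site in use, and these medians were not tested against each other.

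The windows below show the E2F letters, in capitals and as they read on the gene's strand, of 6 genes whose values are given in the following paragraphs. Each is 60 bases of GRCm38.p6 written 5′ to 3′, all upstream of the start. In Mcm5 and Mcm6 a match on each strand overlaps, so the capitals run through both.
Orc1 (chr4:108579394-108579453, plus strand): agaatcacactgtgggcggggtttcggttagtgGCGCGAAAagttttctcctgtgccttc
Cdc6 (chr11:98907987-98908046, plus strand): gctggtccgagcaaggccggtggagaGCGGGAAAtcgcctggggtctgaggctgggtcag
Mcm5 (chr8:75109332-75109391, plus strand): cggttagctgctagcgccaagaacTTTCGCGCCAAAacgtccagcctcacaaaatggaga
Mcm6 (chr1:128359776-128359835, minus strand): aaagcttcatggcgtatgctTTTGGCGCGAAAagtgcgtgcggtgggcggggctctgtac
Rfc3 (chr5:151651209-151651268, minus strand): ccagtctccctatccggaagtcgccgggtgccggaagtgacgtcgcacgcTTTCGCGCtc
Uhrf1 (chr17:56304102-56304161, plus strand, from the second of 2 listed starts): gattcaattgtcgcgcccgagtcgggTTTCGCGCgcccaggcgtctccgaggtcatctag
The promoters of Mcm10, which was not called, and of Rrm2, which rose 12.9-fold, are shown for contrast, because neither held any of the E2F letters. Both genes were picked with their fold changes in view. These windows of 120 bases end at the start, and the capitals mark CCAAT.
Mcm10 (chr2:5012792-5012911, minus strand): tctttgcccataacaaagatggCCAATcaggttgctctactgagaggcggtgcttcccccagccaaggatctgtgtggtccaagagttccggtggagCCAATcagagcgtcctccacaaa
Rrm2 (chr12:24708134-24708253, plus strand): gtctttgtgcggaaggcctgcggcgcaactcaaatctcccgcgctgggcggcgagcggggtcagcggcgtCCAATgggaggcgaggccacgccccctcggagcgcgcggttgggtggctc

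Among the 5 licensing genes, the loaders were higher and geminin was not called. Cdc6, which helps to load the helicase and carries a TTTCCCGC match on the minus strand in the window above, read 0.457, 0.949, 0.191, 0.312 and 0.584 CPM in control replicates 1 to 5. Cdc6 read 2.90, 5.88, 6.69, 6.48 and 8.10 CPM in treated replicates 1 to 5. Every treated sample lay above every control sample, and treated replicate 1 was the lowest of its group. The difference in Cdc6 was 3.55 ± 0.40 (log2, SE, n = 5 per group, edgeR adjusted p = 9.03e-06), a fold of 11.8. As a ratio of summed scaled counts, from 43 counts in all controls, it was 11.8-fold with a 95% counting interval of 8.66 to 16.4.

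Orc1, the ATPase subunit that marks origins, was close to the counting floor in controls, with 14 counts over the 5 libraries against 182 in treated samples. The Orc1 ratio was 8.39-fold with a 95% counting interval of 4.87 to 15.6, and its log2 fold change was 3.04 ± 0.36 (SE, edgeR adjusted p = 1.47e-05). Cdt1, the helicase loader that acts with Cdc6, went from 5.14 ± 0.55 CPM (SD, n = 5) to 17.2 ± 1.65 CPM. Its treated samples were among the most alike of all the genes, with a coefficient of variation of 9.62%. Orc6, the smallest origin recognition subunit, went from 6.92 ± 1.17 CPM to 16.4 ± 3.00 CPM, and neither Cdt1 nor Orc6 had overlapping groups.

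Gmnn, which encodes geminin, the inhibitor of Cdt1, read 13.98, 16.6, 15.1, 11.7 and 11.2 CPM in control replicates 1 to 5 and 12.1, 13.4, 15.0, 16.3 and 15.1 CPM in treated replicates 1 to 5. The groups of Gmnn overlapped over nearly their whole ranges. The difference was 0.07 ± 0.14 (log2, SE, edgeR adjusted p = 0.668). With scaling to total counts the Gmnn difference was 0.58 (edgeR adjusted p = 0.00259), close to the shift of the median gene under that scaling.

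All 6 subunits of the Mcm2-7 helicase, the ring that unwinds DNA at the fork, were called higher, against 34.2% of all genes tested. Their median log2 fold change was 1.94. No subunit had overlapping groups, where 26.1% of all genes tested were higher without overlap. Mcm5 changed most: it read 4.17, 3.74, 4.26, 3.86 and 4.81 CPM in control replicates 1 to 5 and 22.2, 31.3, 38.2, 39.0 and 39.3 CPM in treated replicates 1 to 5. The lowest treated sample of Mcm5 was 4.63 times the highest control. Its difference was 3.03 ± 0.17 (log2, SE, edgeR adjusted p = 5.20e-08).

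Mcm6 and Mcm2 changed least within the ring. Mcm6 read 20.2, 22.1, 18.9, 18.7 and 18.2 CPM in control replicates 1 to 5 and 43.4, 56.8, 62.6, 77.1 and 67.7 CPM in treated replicates 1 to 5. Treated replicate 1 was again the lowest and replicate 4 the highest, and no treated sample came near the controls. The Mcm6 difference was 1.65 ± 0.14 (log2, SE, edgeR adjusted p = 1.01e-06), and that of Mcm2 was 1.65 ± 0.14 (edgeR adjusted p = 1.28e-06). Mcm3, Mcm4 and Mcm7 lay between, at 2.54 ± 0.31, 2.10 ± 0.18 and 1.77 ± 0.12.

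The subunits assemble in equal numbers in the ring, and their transcript levels were less unequal in treated samples. In CPM per kilobase of the longest principal transcript (GENCODE M21), group means ran from 1.23 for Mcm5 to 6.74 for Mcm6 in controls, a 5.47-fold span. With puberulic acid they ran from 7.96 for Mcm4 to 21.1 for Mcm6, a 2.65-fold span. The narrowing of the span was not tested. Mcm6 remained the subunit with the highest level per kilobase in both groups.

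**Figure D2:**
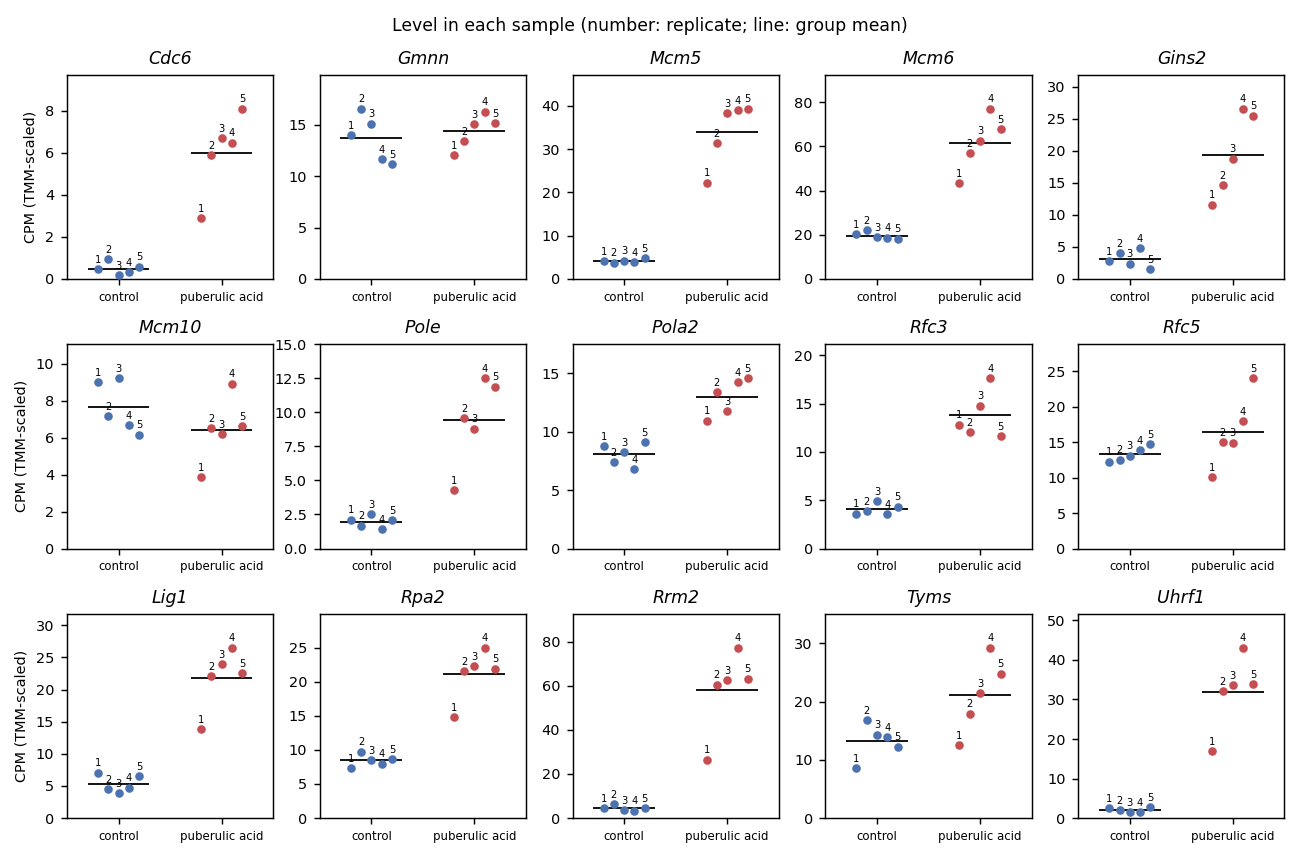
CPM (y axis, TMM-scaled) in each control and treated sample (points, numbered by replicate) with the group mean (line), for the genes with the largest and the smallest fold change of each role, with Uhrf1 as the one gene of its role. Gmnn, Mcm10, Rfc5 and Tyms are the panels whose groups overlap, and treated replicate 1 is the lowest treated sample in every panel except Rfc3.

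Of the 6 genes that turn the loaded helicase into an active one, 5 were higher, against 34.2% of all genes tested. The median log2 fold change over the 6 was 1.68. Gins2, a subunit of the GINS ring that joins Cdc45 and Mcm2-7, read 2.74, 4.01, 2.42, 4.86 and 1.56 CPM in control replicates 1 to 5 and 11.6, 14.6, 18.8, 26.6 and 25.5 CPM in treated replicates 1 to 5. All treated samples exceeded all controls, with a wide spread in both groups. The Gins2 difference was 2.63 ± 0.32 (log2, SE, edgeR adjusted p = 1.75e-05).

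The GINS subunits did not move by the same amount. Gins1 and Gins3 differed by 1.87 ± 0.32 and 1.49 ± 0.18 (log2, SE), while Gins4 differed by 0.33 ± 0.09 (edgeR adjusted p = 0.00894), the smallest change among the 33 called genes. Gins4 had 13.8 to 15.7 CPM in controls and 16.6 to 20.4 CPM in treated samples, so its groups were separate by a narrow gap. Per kilobase, Gins4 ranked 3 of the 36 genes in controls and 7 in treated samples, while Gins3 ranked 33 in both. Cdc45, the partner of GINS in the active helicase, differed by 1.87 ± 0.30 (edgeR adjusted p = 0.000174), and its lowest treated sample, replicate 1 at 3.60 CPM, was close to the highest control at 3.20 CPM.

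Mcm10, which is needed to start unwinding and is no part of the Mcm2-7 ring, read 9.02, 7.17, 9.23, 6.67 and 6.17 CPM in control replicates 1 to 5 and 3.86, 6.52, 6.18, 8.92 and 6.62 CPM in treated replicates 1 to 5. Its groups overlapped, and it is the one gene of the 36 whose fitted change was below 0, at -0.25 ± 0.21 (log2, SE, edgeR adjusted p = 0.314). With scaling to total counts the sign turned, to 0.26 (edgeR adjusted p = 0.30), and it ran from -0.44 without treated replicate 4 to -0.14 without treated replicate 1, not called in any of these. Per kilobase Mcm10 went from rank 25 in controls to rank 34 in treated samples, while the genes around it in the pathway were higher.

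All 6 polymerase and primase genes were higher, against 34.2% of all genes tested, with a median log2 fold change of 1.51. Pole, the catalytic subunit of the leading strand polymerase epsilon, read 2.11, 1.69, 2.55, 1.43 and 2.08 CPM in control replicates 1 to 5 and 4.31, 9.58, 8.81, 12.5 and 11.9 CPM in treated replicates 1 to 5. Treated replicate 1 was the lowest by far but was still above all controls. The Pole difference was 2.26 ± 0.29 (log2, SE, edgeR adjusted p = 2.53e-05). Pold1, the catalytic subunit of the lagging strand polymerase delta, differed by 1.88 ± 0.27, and Pola1, the catalytic subunit of polymerase alpha, by 1.87 ± 0.15.

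Pola2, the accessory subunit of polymerase alpha, changed much less than Pola1. Pola2 read 8.79, 7.38, 8.27, 6.79 and 9.09 CPM in control replicates 1 to 5 and 10.9, 13.4, 11.8, 14.2 and 14.6 CPM in treated replicates 1 to 5. The groups were separate, and the difference was 0.69 ± 0.13 (log2, SE, edgeR adjusted p = 0.000575). Of the primase subunits, the catalytic Prim1 was 2.22-fold higher, with a lowest treated sample of 10.1 CPM against a highest control of 6.73 CPM. The large subunit Prim2 differed by 0.70 ± 0.20 (edgeR adjusted p = 0.00985) with overlapping groups, since treated replicate 1 had 4.57 CPM and the controls reached 5.48 CPM.

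The clamp and 2 of its 3 loader subunits here were higher, against 34.2% of all genes tested. Pcna, the sliding clamp, had the highest level per kilobase of the 36 genes in both groups and went from 39.7 ± 2.28 CPM (SD, n = 5) to 100.3 ± 19.98 CPM, a difference of 1.34 ± 0.13 (log2, SE, edgeR adjusted p = 2.99e-06). Rfc3, a subunit of the replication factor C loader, read 3.60, 3.90, 4.90, 3.55 and 4.35 CPM in control replicates 1 to 5 and 12.8, 12.1, 14.8, 17.6 and 11.6 CPM in treated replicates 1 to 5. All treated samples of Rfc3 were well above the controls, and here replicate 5, not 1, was the lowest. Its difference was 1.76 ± 0.16 (log2, SE, edgeR adjusted p = 1.67e-06).

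Rfc5, another loader subunit, read 12.3, 12.5, 13.1, 13.9 and 14.7 CPM in control replicates 1 to 5 and 10.1, 15.0, 15.0, 18.01 and 24.0 CPM in treated replicates 1 to 5. Treated replicate 1 lay below all controls and the other treated samples above them. The Rfc5 difference was 0.30 ± 0.19 (log2, SE, edgeR adjusted p = 0.182). Without treated replicate 1 it was 0.41 (edgeR adjusted p = 0.0280), and without treated replicate 5 it was 0.095 (edgeR adjusted p = 0.626), so single libraries decide the call and the size. With scaling to total counts it was 0.82 (edgeR adjusted p = 0.00337). Rfc4 lay between Rfc3 and Rfc5, at 0.95 ± 0.17.

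The 3 genes of lagging strand processing and single-strand binding were all higher, against 34.2% of all genes tested. Lig1, the ligase that seals Okazaki fragments, read 7.08, 4.48, 3.88, 4.74 and 6.56 CPM in control replicates 1 to 5 and 13.8, 22.1, 24.0, 26.5 and 22.5 CPM in treated replicates 1 to 5. The groups were separate, and the Lig1 difference was 2.03 ± 0.21 (log2, SE, edgeR adjusted p = 5.37e-06). Fen1, the flap nuclease that trims those fragments, differed by 1.79 ± 0.19.

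Rpa2, a subunit of the protein that coats single-stranded DNA, changed least of the 3. Rpa2 read 7.30, 9.75, 8.53, 7.98 and 8.64 CPM in control replicates 1 to 5 and 14.8, 21.5, 22.3, 24.98 and 21.9 CPM in treated replicates 1 to 5. Apart from replicate 1 the treated samples were close together. The difference was 1.32 ± 0.14 (log2, SE, edgeR adjusted p = 8.03e-06).

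All 5 nucleotide supply genes were higher, against 34.2% of all genes tested, with a median log2 fold change of 1.48. The size of the changes was very unequal. Rrm2, the small subunit of ribonucleotide reductase that is made in S phase, read 4.34, 6.33, 3.69, 3.43 and 4.55 CPM in control replicates 1 to 5 and 26.4, 60.5, 62.5, 77.3 and 63.2 CPM in treated replicates 1 to 5. Its lowest treated sample was 4.18 times its highest control. The Rrm2 difference was 3.69 ± 0.28 (log2, SE, edgeR adjusted p = 4.46e-07), a fold of 12.9. Per kilobase Rrm2 went from rank 21 of the 36 genes in controls to rank 2, behind Pcna.

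Rrm1, the large subunit of the same enzyme, differed by 1.48 ± 0.27 (log2, SE), from 15.97 ± 4.21 CPM (SD, n = 5) to 44.5 ± 16.7 CPM. Tk1, the cytosolic thymidine kinase of the salvage route, differed by 1.71 ± 0.29, and Dut, the enzyme that breaks down dUTP and supplies dUMP, by 0.95 ± 0.18. In both, treated replicate 1 lay only just above the highest control, at 9.84 against 9.49 CPM of Tk1 and 16.7 against 16.4 CPM of Dut.

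Tyms, which makes dTMP from dUMP, was the least changed of the supply genes. Tyms read 8.62, 16.8, 14.3, 13.8 and 12.3 CPM in control replicates 1 to 5 and 12.5, 17.9, 21.4, 29.3 and 24.8 CPM in treated replicates 1 to 5. Treated replicate 1 lay within the control range and the other treated samples above it. The difference was 0.68 ± 0.23 (log2, SE, edgeR adjusted p = 0.0188). Without treated replicate 4 it was 0.51 (edgeR adjusted p = 0.0620) and without treated replicate 5 it was 0.60 (edgeR adjusted p = 0.0531), so the call on Tyms rests on those samples.

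Uhrf1, which recognises hemimethylated DNA behind the fork and brings in the maintenance methyltransferase Dnmt1, had the largest change of the 36 genes. Uhrf1 read 2.57, 2.00, 1.53, 1.43 and 2.73 CPM in control replicates 1 to 5 and 16.9, 32.1, 33.6, 43.1 and 33.8 CPM in treated replicates 1 to 5. The lowest treated sample was 6.21 times the highest control. The difference was 3.95 ± 0.27 (log2, SE, edgeR adjusted p = 2.06e-07), a fold of 15.5. Per kilobase Uhrf1 went from rank 31 to rank 17. Dnmt1 itself, named after its values were seen, differed by 1.14 ± 0.12 (edgeR adjusted p = 4.66e-06).

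One treated sample was the lowest for nearly all of the genes. Treated replicate 1 was the lowest of its group for 34 of the 36 genes, the exceptions being Gins3 and Rfc3, and replicate 4 was the highest for 25. The order of the other treated samples differed from gene to gene. Summed over the 36 genes, the level was 275 to 299 CPM in controls and 550 to 1075 CPM in treated samples, with means of 290 ± 8.57 and 850 ± 192 CPM (SD, n = 5) and a ratio of 2.94. Treated replicate 1 had the 550 CPM and replicate 4 the 1075 CPM. The mean of log2(CPM + 1) over the 36 genes was 2.77 ± 0.05 in controls and 4.19 ± 0.32 in treated samples, a difference of 1.42, or 1.55 without treated replicate 1. Without that replicate 34 of the 36 genes were called higher.

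**Figure D3:**
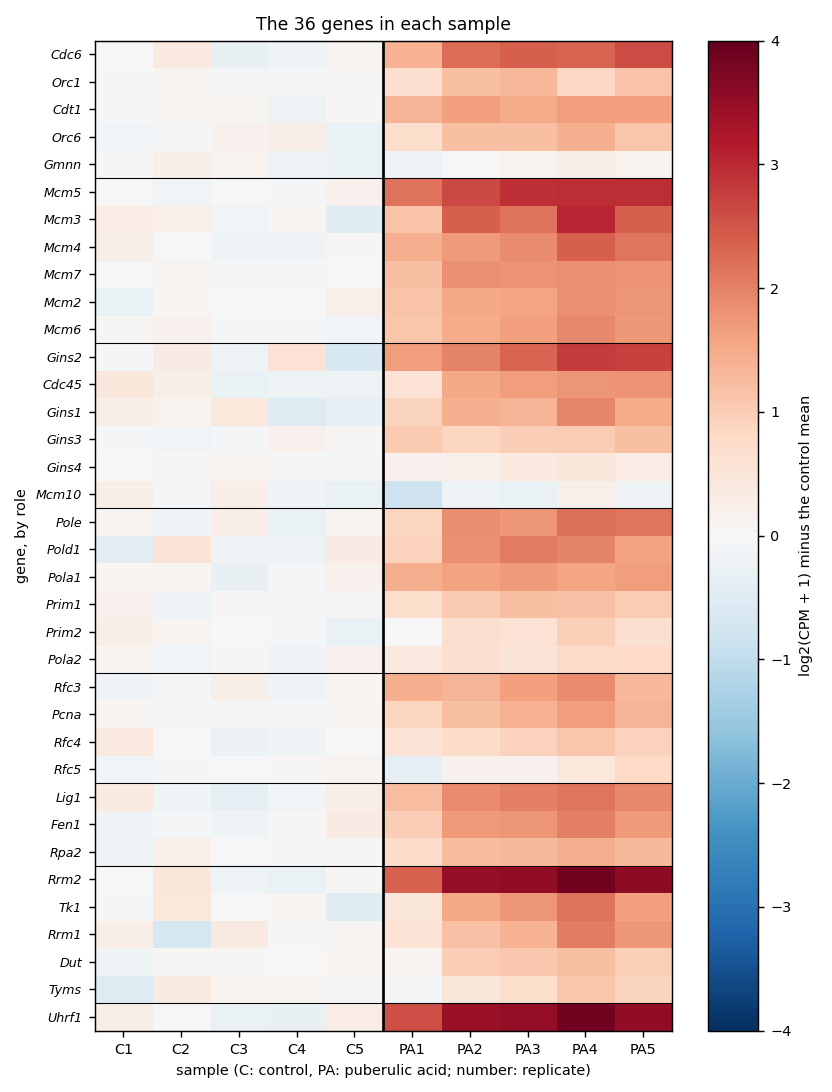
Log2(CPM + 1) of each gene (rows, by role) in each sample (columns: control C1 to C5, puberulic acid PA1 to PA5) minus the control mean of that gene, on a colour scale from -4 (blue) to 4 (red). PA1 is the palest of the treated columns in most rows, and Rrm2 and Uhrf1 are the darkest rows.

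Markers of several cell types differed between the groups, read here beside the 34.2% higher and 31.1% lower of all genes tested. Leukocyte markers together reached 97.6 CPM in control replicate 4, 26.3 to 47.0 CPM in the other control samples and 97.7 to 354 CPM in treated samples, with 4 of the 6 tested called higher, while Cd79a and S100a8 did not pass the filter and Ly6g was at 0. Summed fibroblast and pericyte markers were 93.0 to 152 CPM and 325 to 1059 CPM, with 5 of 6 called higher. Summed proximal tubule markers were 7000 to 10191 CPM and 501 to 1244 CPM, with all 7 called lower. Of the loop, distal and collecting duct markers 4 of 5 were lower, and of the erythroid precursor markers all 3 that were tested. The podocyte markers (1 of 4 lower) and the endothelial markers (2 of 5 lower) were near the share of all genes. These smaller splits depend on the scaling: by total counts 2 of the 5 loop, distal and collecting duct markers were lower and 1, Umod, was higher. By total counts 9179 of the 16266 genes tested were higher and 2526 lower. The podocyte marker and both endothelial markers lost their calls on that scale (edgeR adjusted p = 0.267 for Nphs1, 0.267 for Kdr and 0.696 for Egfl7). Treated replicate 1 had the lowest leukocyte sum (97.7 CPM), the lowest fibroblast and pericyte sum (325 CPM) and the highest proximal tubule sum (1244 CPM) of its group, and the other treated samples did not follow one order across these sums. The part of these cell types in the replication gene levels was not tested.

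Ratios of 2 genes within a library do not depend on how libraries are scaled. There were 8 such ratios, compared by an exact two-sided permutation test over 252 assignments with Benjamini-Hochberg adjustment over the 8, whose smallest p is 0.00794. For 6 ratios the groups did not overlap, with p = 0.00794 and adjusted p = 0.0106 in each by the exact permutation test.

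Rrm2 over Rrm1, the subunits of ribonucleotide reductase, had log2 ratios of -2.11, -0.57, -2.44, -2.09 and -1.88 in control replicates 1 to 5 and 0.21, 0.74, 0.55, 0.22 and 0.22 in treated replicates 1 to 5. The small subunit transcript was thus the less counted one in every control and the more counted one in every treated sample, a shift of 2.21 or 4.61-fold. Rrm2 over Rrm2b, the small subunit used outside S phase, shifted by 4.23, or 18.8-fold, and Rrm2b on its own was lower by edgeR, at -0.60 ± 0.13 (adjusted p = 0.00158), but not with scaling to total counts (-0.09, edgeR adjusted p = 0.551). Tk1 over Tk2, the mitochondrial thymidine kinase, shifted by 1.86, or 3.64-fold. Tk2 on its own differed by -0.22 ± 0.09 (edgeR adjusted p = 0.0393) and by 0.29 (edgeR adjusted p = 0.0126) with scaling to total counts, so its own direction depends on the scaling. The lower call on Tk2 was also lost in 9 other settings, among them no filter (edgeR adjusted p = 0.109), upper-quartile factors (0.219), the replicate block (0.0564) and 6 of the fits that left out 1 sample (0.0518 to 0.0644).

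Cdt1 over Gmnn, the loader over its inhibitor, had log2 ratios of -1.58 to -1.06 in controls and 0.10 to 0.44 in treated samples, a shift of 1.66 or 3.16-fold. Treated replicate 1, the lowest for both genes, had 0.30 and did not stand apart in this ratio. Prim1 over Pola1, primase over its polymerase, moved the other way, by -0.74, which is 1.67-fold lower. Pcna over Rfc4, the clamp over a loader subunit, shifted by 0.36 or 1.282-fold. Its groups were barely separate: the highest control was at 3.175 (replicate 3) and the lowest treated sample at 3.180 (replicate 1). Cdc45 over Mcm2 differed by 0.20 (exact permutation p = 0.444, adjusted p = 0.444) and Pold1 over Pole by -0.30 (exact permutation p = 0.381, adjusted p = 0.435), both with overlapping groups. Single libraries moved both: Cdc45 over Mcm2 ran from 0.07 without control replicate 5 to 0.43 without control replicate 1, and was 0.35 without treated replicate 1. Pold1 over Pole ran from -0.46 without control replicate 1 to -0.09 without control replicate 2, and neither ratio was called in any of these fits.

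**Figure D4:**
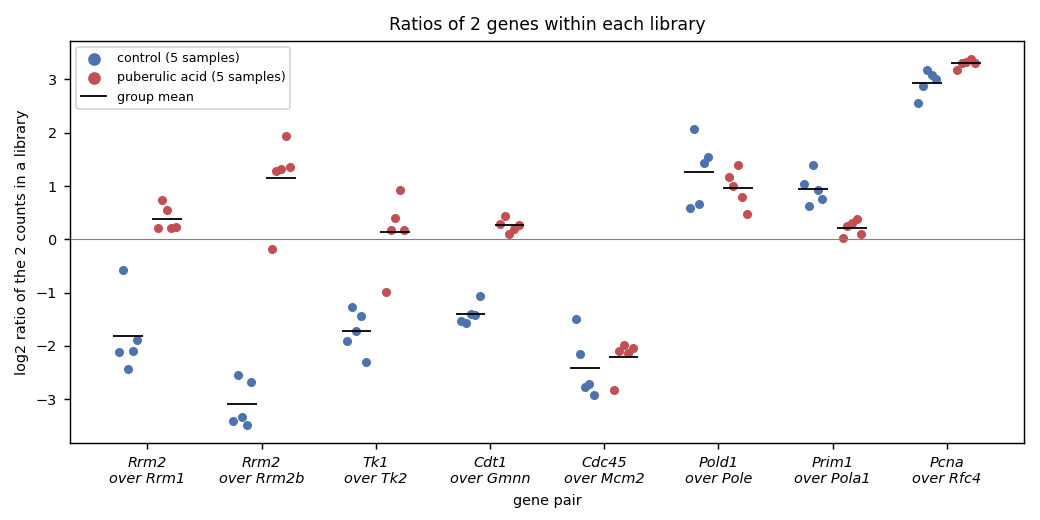
Log2 ratio of the counts of 2 genes in the same library (y axis) for 8 gene pairs (x axis), with a point for each of 5 control and 5 treated samples and a line at the group mean. The groups are separate for all pairs except Cdc45 over Mcm2 and Pold1 over Pole, and Rrm2 over Rrm2b has the widest separation of means, at 4.23. Pcna over Rfc4 is separate only by a very narrow gap.

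Other genes of DNA copying and nucleotide metabolism, in 9 lists with 125 genes, did not all follow. Together 63 were called higher, 30 lower and 32 were not called, against 34.2% higher and 31.1% lower of all genes tested. With scaling to total counts 93 were higher and 11 lower, where 9179 of the 16266 genes tested were higher and 2526 lower. Of 18 further origin and fork genes 12 were higher, 2 lower and 4 not called, and 15 higher and 0 lower with scaling to total counts. Clspn, which encodes the checkpoint mediator claspin, rose most, by 3.57 ± 0.59 (log2, SE, edgeR adjusted p = 0.000208). Orc3, an origin recognition subunit, differed by -0.45 ± 0.11 (edgeR adjusted p = 0.00403), or by 0.06 with scaling to total counts.

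Of 17 further polymerase, clamp and primer removal genes 7 were higher, 3 lower and 7 not called, a share of higher genes near that of all genes tested (34.2%). With scaling to total counts they were 14 higher and 1 lower, where 9179 of the 16266 genes tested were higher and 2526 lower. Dscc1, part of an alternative clamp loader, had 1 to 5 counts in each control and differed by 3.15 ± 0.46, while Rnaseh2c, a subunit of the nuclease that removes ribonucleotides from DNA, fell by 0.96. Of 7 genes of chromatin assembly and methylation at the fork 6 were higher and 0 lower, with a median of 1.73. Hells, a chromatin remodeller that supports DNA methylation, was the highest of these at 3.51 ± 0.34.

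Calls among other genes of nucleotide metabolism went in both directions, beside 34.2% higher and 31.1% lower over all genes tested, and the lists were not tested against each other. With scaling to total counts 9179 of the 16266 genes tested were higher and 2526 lower. Of 18 further genes of dNTP supply 3 were higher, 10 lower and 5 not called, or 8 higher and 5 lower with scaling to total counts. The one-carbon enzyme Mthfd2 rose by 2.80 ± 0.11 (log2, SE, edgeR adjusted p = 4.70e-09), whereas Shmt2, which makes mitochondrial one-carbon units, fell by 2.10. Of 18 genes of de novo ribonucleotide synthesis 5 were higher, 7 lower and 6 not called, or 11 higher and 1 lower with scaling to total counts, with Ctps1, which makes CTP, at 1.43 ± 0.12 and Dhodh, the mitochondrial pyrimidine enzyme, at -1.08 ± 0.23. Of 8 salvage genes 6 were higher and 2 lower, or 6 higher and 1 lower with scaling to total counts. Among them Uck2, a uridine-cytidine kinase, was at 1.86 ± 0.16 and Adk, adenosine kinase, at -1.0 ± 0.11.

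The mitosis list was higher as a whole, the list of the G1 to S transition in part, and the mitochondrial list had no gene called higher, against 34.2% of all genes tested called higher and 31.1% called lower. Of 18 genes of the G1 to S transition 12 were higher, 1 lower and 5 not called. The split was 17 higher and 1 lower with scaling to total counts, where 9179 of the 16266 genes tested were higher and 2526 lower. Without treated replicate 1 the split of this list was 13 higher and 2 lower. The list held Ccna2, cyclin A2, at 3.96 ± 0.34 and Rbl2, a pocket protein of non-dividing cells, at -0.95 ± 0.12. All 12 mitosis genes were higher, with a median of 4.02, above the change of each of the 36 genes, and Plk1, a mitotic kinase, was the highest at 4.45 ± 0.38. Of 9 genes that copy the mitochondrial genome 0 were higher, 5 lower and 4 not called, with a median of -0.39. With scaling to total counts 3 of these 9 were higher and 2 lower. Top1mt, the mitochondrial topoisomerase, had the largest fall, by 1.12, or by 0.61 with scaling to total counts.

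**Figure D5:**
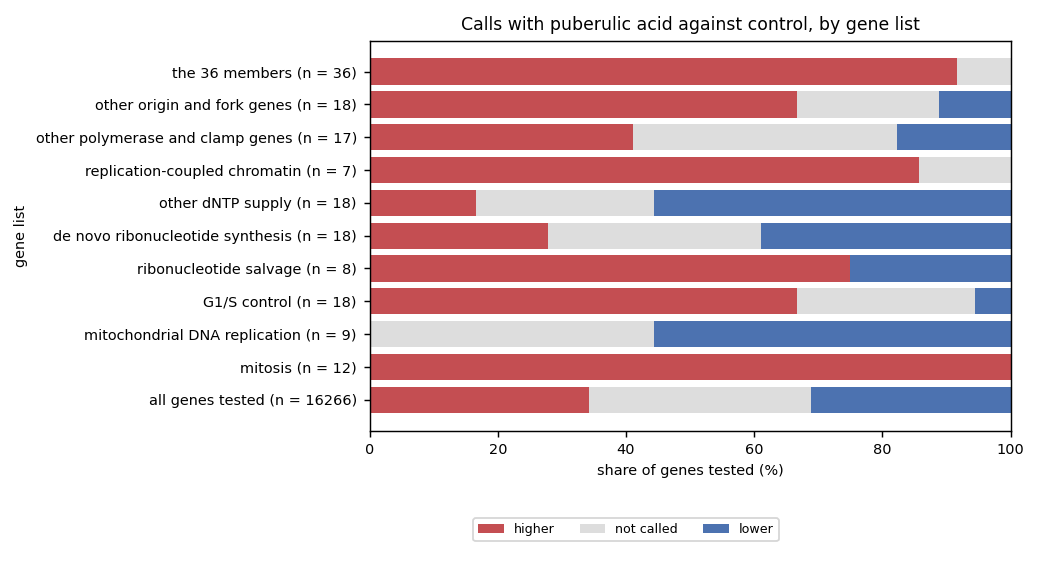
Share of the tested genes of each list (x axis, percent) called higher, not called or called lower with puberulic acid, for the 36 genes, 9 further lists and all genes tested (y axis, with the number tested). The red part covers 33 of the 36 genes and all 12 mitosis genes, against 34.2% of all genes tested, and is missing from mitochondrial DNA replication, while 31.1% of all genes tested are lower.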

How the data were processed

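Whole kidney poly(A) RNA libraries were made with a strand-specific kit, per the labels' protocols. The deposited table holds the authors' estimated counts by gene, with decimals. fastp 0.22.0, FastQC 0.12.1, MultiQC 1.28, Salmon 1.10.3, DESeq2 and the build GRCm39 are named in the submitters' processing notes, without roles. The annotation is not given in the sources used here. Another 10 sample columns, whose names do not match a single sample, were not used.

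The expected counts were rounded to whole numbers and tested with edgeR 4.0.16 (limma 3.58.1, R 4.3.3): filterByExpr, TMM factors, glmQLFit and glmQLFTest, with Benjamini-Hochberg adjustment. No other samples than the 5 controls and 5 treated ones were fitted. SE is the size of the log2 fold change over the square root of F. The fit was tested on 5 simulated tables built from the control means, in which few genes changed and rises and falls were balanced. These tables did not hold the wide shift in composition of the data, so they do not show how the fit performs under it. Ratios used 0.5 counts as offset, and levels log2(CPM + 1). DESeq2 1.42.0, numpy 2.4.6, scipy 1.17.1 and pandas 2.3.3 served the other steps. Alternatives were other scalings, filters, DESeq2, a robust fit, the replicate number as a block, a pseudocount of 0.1, an offset of 5 counts, unrounded counts and leaving out each sample.

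The members and lists were chosen with earlier results of these data known. Values in every sample are given for the genes with the largest and smallest fold change of each role and for those not called. From each further list, the called genes with the largest rise and fall are named. Same-group libraries differed beyond sampling noise (chi-square of 12.7 to 89.7 per degree of freedom, with 0 identical columns). Processed pseudogenes of Pcna and Tyms in the table had 0 counts. GENCODE M21 transcripts gave lengths, and RefSeq promoters come from GRCm38.p6, another build than the counts.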

Additional observations from a re-analysis of the deposited data

Results flagged for a closer look

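Of 92 groups of 5 samples 3 held a sample far from its group, its gap to the nearest sample divided by the group's range exceeding 0.71, and chance gives about 1 in 20, or 4.6. Treated replicate 1 was the lowest for Mcm7, a helicase subunit, at 37.2 CPM against 56.3 to 57.7 CPM in the other treated samples (gap over range 0.933). Control replicate 1 was the lowest for Dut, the enzyme that breaks down dUTP, at 13.5 CPM against 15.8 to 16.4 CPM (gap over range 0.811). Treated replicate 1 was the lowest for the log2 ratio of Cdc45 to Mcm2, at -2.83 against -2.13 to -1.98 (gap over range 0.820).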

How the results depend on the processing

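The count of 33 genes called higher was the same under each planned filter, with RLE and upper-quartile factors, DESeq2 and the robust fit, was 35 with scaling to total counts, and ran from 32 to 34 when single samples were left out; 0 were lower in any of these. Scaling to total counts raised the genes called higher to 9179, reduced those called lower to 2526 and the lower genes of the further lists to 11, raised the mean difference of the 36 genes to 1.86, and turned the sign of Mcm10 (0.26), Orc3 (0.059) and Tk2 (0.29). Gmnn ran from -0.013 to 0.14 when single samples were left out, below 0 without control replicate 5 (-0.0069) or treated replicate 4 (-0.013). The cause was not tested. All called genes numbered 9960 to 11844 under the planned settings that kept all samples.

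Replicate numbers did not pair the samples: same-numbered deviations correlated at -0.168 to 0.0199 (mean -0.043). With the replicate block 10325 genes and 33 of the 36 were called. The block left the ratio shifts at 2.21 (Rrm2 over Rrm1), 4.23 (Rrm2 over Rrm2b), 1.86 (Tk1 over Tk2), 1.66 (Cdt1 over Gmnn), -0.74 (Prim1 over Pola1) and 0.36 (Pcna over Rfc4), with adjusted p = 0.0833 in each by an exact paired permutation test that cannot go below p = 0.0625. Leaving out single samples, called genes ranged from 10104 to 11108. Depth limits Orc1, which had 14 counts over all controls. Leaving out single samples was added for the mean level of the 36 genes after the data were seen, and gave differences of 1.34 to 1.55. In the 250 bases before the start alone, E2F letters were found for 9 of the 29 genes with a promoter, against 3.58% of the tested genes with one.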

Other observations

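Subunits of one complex changed by unequal amounts, as seen with genes chosen here after their values were seen. In the origin recognition complex the log2 fold changes were 3.04 (Orc1), 0.62 (Orc2), -0.45 (Orc3), 0.12 (Orc4, not called), -0.42 (Orc5) and 1.24 (Orc6), and with scaling to total counts Orc3 and Orc5 were at 0.06 and 0.09. Polymerase epsilon had 2.26 for Pole and 1.18 for Pole2, while Pole3 and Pole4, small subunits with a histone fold, were not called at 0.07 and 0.10. Polymerase delta had 1.88 for Pold1, 0.80 for Pold3 and 1.55 for Pold4, and Pold2 was not called at 0.33. In the clamp loader Rfc1 was not called at 0.24 and Rfc2 differed by -0.35 (0.16 with scaling to total counts), beside 1.76 for Rfc3. The single-strand binding protein had 0.65 for Rpa1, 1.32 for Rpa2 and -0.03 for Rpa3, which was not called. Calls on such subunits depend on the scaling: of 17 further polymerase, clamp and primer removal genes 7 were higher, or 14 with scaling to total counts. Differences between the subunits of a complex were not tested.

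The E2F genes also had different fold changes, which were not tested against each other. E2f1, an activator of S phase genes, differed by 2.02, and the repressors E2f7 and E2f8 by 3.42 and 3.75, while the activator E2f2 was not called at 0.56. E2f3, also on the G1 to S list, is not described here, so these values do not compare activators with repressors. Cyclins E1 and E2, which start S phase with Cdk2, differed by 2.83 (Ccne1) and 2.87 (Ccne2), and Cdk2 by 0.87. The genes given with a value here were called higher by edgeR except where stated, and were named after their values were seen.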
